A study of Mus musculus with 25 samples.

Results

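The Zfp genes are mouse genes for zinc-finger proteins whose symbol is Zfp followed by digits. Of the 13527 open-chromatin regions (peaks) in the deposited count table, 274 were nearest to the start of such a gene among protein-coding genes and are called Zfp peaks here. The nearest start was taken from the midpoint of each peak in the GENCODE vM39 annotation of the GRCm39 genome, and Zfp36, which encodes an RNA-binding protein of another kind, was left out. The 274 peaks belonged to 212 of 382 annotated Zfp genes, of which 170 had 1 peak, 30 had 2, 7 had 3 and 5 had 4 or more.

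ATAC-seq, in which a transposase cuts accessible DNA, was carried out on OVA-tetramer+ CD8+ T cells (T_FGS) sorted from the spleen and lymph nodes of female C57BL/6 mice that were 8 to 12 weeks old when purchased and older when sorted. The 25 libraries fell into 7 groups. Naive mice (n = 3) had neither graft nor pregnancy, and Sensitized mice (n = 4) had received a 2W-OVA.BALB/c skin graft and were analysed from day 30 on. Naive mice that had been mated with 2W-OVA.BALB/c males gave the post-partum subsets N+P C1 (PD1-, n = 3) and N+P C5 (PD1+CD73+, n = 3). Sensitized mice mated in the same way gave S+P C4 (PD1-, n = 4), S+P C5 (PD1+CD73+, n = 4) and S+P C7 (PD1+CD73-, n = 4). Post-partum cells were collected on days 0 to 3 after birth, the subsets of a mouse came from the same animal, and no subset gate is named in the labels of the Naive and Sensitized groups, so a post-partum subset differed from these groups in gate as well as in pregnancy. In bulk cells, a smaller number of cells with an open region and less opening in each cell cannot be told apart.

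Zinc-finger proteins of this class bind DNA through C2H2 fingers, short loops held by a zinc ion. Many also carry a KRAB box, which recruits the corepressor TRIM28 and, through it, histone-methylating enzymes that silence retroelements and imprinted regions. KRAB zinc-finger genes arose by tandem duplication, so that near copies lie side by side in clusters, and a few Zfp genes without the box have described roles in lymphocytes.

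Promoters of the 2 largest clusters are shown first, since all of their peaks were lower in S+P C5 than in N+P C5. Of 12 promoters of the chromosome 13 cluster with a peak, 8 (66.7%) held the letters ATGTAGTC or their reverse complement GACTACAT within 250 bases before to 50 bases after the gene start, against 1.59% of 6405 promoters searched in the same way. The 8-letter word was chosen as the one whose share in these promoters most exceeded its share in all, so both shares are descriptions. The stretches below run from 130 bases before to 20 bases after the gene start, are read 5′ to 3′ on the strand of the gene from the GRCm39 sequence, and have the word in capitals. They lie at chr13:67877280-67877429 (minus strand), chr13:67480643-67480792 (minus strand), chr13:67927670-67927819 (plus strand) and chr13:67454530-67454679 (minus strand).
Zfp65: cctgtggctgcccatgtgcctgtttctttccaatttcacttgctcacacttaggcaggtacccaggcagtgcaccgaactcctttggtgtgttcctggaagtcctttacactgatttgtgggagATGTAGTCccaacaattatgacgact
Zfp595: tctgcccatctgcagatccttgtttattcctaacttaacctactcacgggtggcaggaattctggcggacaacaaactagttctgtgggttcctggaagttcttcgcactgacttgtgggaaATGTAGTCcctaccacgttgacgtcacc
Zfp493: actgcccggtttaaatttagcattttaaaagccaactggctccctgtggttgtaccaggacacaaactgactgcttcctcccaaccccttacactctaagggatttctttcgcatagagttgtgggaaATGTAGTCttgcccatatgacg
Zfp457: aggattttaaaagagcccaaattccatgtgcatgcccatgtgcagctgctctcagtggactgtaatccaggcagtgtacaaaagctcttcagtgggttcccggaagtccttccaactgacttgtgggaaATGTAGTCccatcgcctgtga

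In the chromosome 17 cluster, 7 of 11 promoters with a peak (63.6%) held AGTGGGAG or its reverse complement CTCCCACT, against 2.30% of the 6405. Each word was found in none of the promoters of the other cluster. The stretches lie at chr17:21670457-21670606, chr17:21709039-21709188 and chr17:22642972-22643121, all on the plus strand, with the word in capitals.
Zfp51: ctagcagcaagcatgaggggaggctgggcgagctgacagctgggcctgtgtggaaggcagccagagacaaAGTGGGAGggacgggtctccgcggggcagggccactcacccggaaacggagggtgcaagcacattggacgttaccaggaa
Zfp53: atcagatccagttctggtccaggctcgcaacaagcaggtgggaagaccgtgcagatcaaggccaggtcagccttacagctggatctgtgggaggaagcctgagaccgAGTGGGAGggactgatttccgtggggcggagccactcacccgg
Zfp946: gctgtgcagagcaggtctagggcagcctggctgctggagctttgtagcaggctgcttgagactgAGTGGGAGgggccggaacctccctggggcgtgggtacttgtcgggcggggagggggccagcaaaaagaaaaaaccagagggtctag

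The chromosome 13 word was also found beyond Zfp genes. Among the 85 promoters of other genes that held it, 24 were higher and 26 lower in S+P C5 than in N+P C5, with a median log2 fold change of 0.05. Of the 6137 without it, 1704 were higher and 1820 lower (median 0.01). Among promoters of Zfp genes with a KRAB-like box, 11 of 14 with the word were lower (median -0.52) and 63 of 100 without it (median -0.39). The part of the word was not tested.

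A region outside promoters is shown because it had the smallest adjusted p of all Zfp peaks for the difference of the pregnancy effects. The Zfp1001 region is the central 300 bases of a peak at chr2:150148626-150149877, 4078 bases from the gene start and inside an intron of 3300002I08Rik, and is shown from chr2:150149102-150149401. It is given on the plus strand with the match to AACCACA, the reverse complement of the letters TGTGGTT bound by RUNX factors, in capitals. In the central 300 bases, or the whole of a shorter peak, the RUNX letters on either strand were present in 9 of 74 Zfp peaks outside promoters (12.2%), against 20.1% of all 5852 such peaks. In S+P C5 against N+P C5 they were present in 4 of 6 Zfp peaks that opened, against 290 of all 1260 opening peaks outside promoters, and in 1 of 13 that closed, the Zfp1001 peak shown, against 177 of all 815 closing ones. The AP-1 letters TGANTCA were present in 0 of the 6 opening and 0 of the 13 closing Zfp peaks, against 29.0% and 8.1%. With so few peaks these shares are descriptions.
Zfp1001: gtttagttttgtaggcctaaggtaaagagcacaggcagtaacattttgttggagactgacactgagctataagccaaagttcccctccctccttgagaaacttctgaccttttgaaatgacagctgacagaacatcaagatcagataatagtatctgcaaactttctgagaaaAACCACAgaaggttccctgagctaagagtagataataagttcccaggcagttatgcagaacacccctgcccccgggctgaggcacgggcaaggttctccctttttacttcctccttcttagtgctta

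Total counts in peaks ranged from 2430890 to 25419715 per library, and Zfp peaks took 1.87% to 2.50% of them. Mean normalized counts (counts divided by DESeq2 size factors, as in all single values below) ran from 114 to 3378 over the Zfp peaks, with a median of 530.2. By correlation over all peaks, 10 of the 25 libraries were nearest to the mean of a group other than their own. Naive replicate 3 was nearest to N+P C1, Sensitized replicates 3 and 4 to N+P C5, and Sensitized replicate 1 to S+P C4. The markers of CD8 T cells had peaks at 6 of 7 genes, with summed counts of 5990 to 10780 per library. No B cell marker of 5 and no myeloid marker of 6 had a peak, of 2 NK cell markers only Klrb1c had (7 peaks, 3810 to 5322), of 2 CD4 T cell markers only Cd4 (2 peaks, 236 to 633), and of 3 erythroid markers only Klf1 (1 peak, 388 to 528).

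Of the 274 Zfp peaks, 200 (73.0%) lay within 1000 bases of a protein-coding transcript start, of the same gene or another, and are called promoter peaks, against 56.7% of all peaks. The others were intergenic (51), intronic (19) or exonic (4). Zfp peaks were listed in all 7 groups by the peak caller more often than all peaks (84, or 30.7%, against 24.0%). A KRAB-like box, a letter pattern of the KRAB A-box found in the translated longest coding sequence, was present in 227 of the 382 genes. Of these, 125 had a peak (55.1%), as did 87 of the other 155 (56.1%). The 125 promoter peaks of KRAB-like genes had a median GC content of 53.4%, against 60.5% for the 75 promoter peaks of Zfp genes without the box and 59.3% for all promoter peaks. The GC-box letters GGGCGG were found in 30.7% of KRAB-like promoters, 50.7% of the other Zfp promoters and 58.1% of all.

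The comparison of S+P C5 with N+P C5 asked how cells of the same sorted phenotype differed with the history of the mouse. Zfp peaks were mostly less accessible in S+P C5: 159 were lower and 34 higher at adjusted p under 0.1 (DESeq2 Wald test, Benjamini-Hochberg over all 13527 peaks, as in all tests below). Over all peaks 32.2% were lower and 31.6% higher. The lower share was 58.0% of Zfp peaks and the higher share 12.4%. The median log2 fold change was -0.34, against 0.00 over all peaks. With an absolute log2 fold change over 0.9 as well, 6 of the 274 Zfp peaks opened and 22 closed. Of all 13527 peaks, 1390 opened and 943 closed, so that 17.2% passed in either direction. The 4 S+P C5 libraries were all below the 3 N+P C5 libraries at 157 Zfp peaks (32.0% of all peaks) and all above them at 37 (30.9% of all peaks). The count of Zfp peaks passing stayed between 171 and 200 when any one library of these groups was left out. The summed counts at CD8 T cell markers also differed, at 6162 to 6392 in the N+P C5 libraries and 7895 to 9476 in the S+P C5 libraries. Those at the NK marker Klrb1c were 4707 to 5238 and 3810 to 4528, and those at Cd4 were 479 to 516 and 279 to 456, so that both were lower in every S+P C5 library. The part of these markers in the result was not tested.

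**Figure D1:**
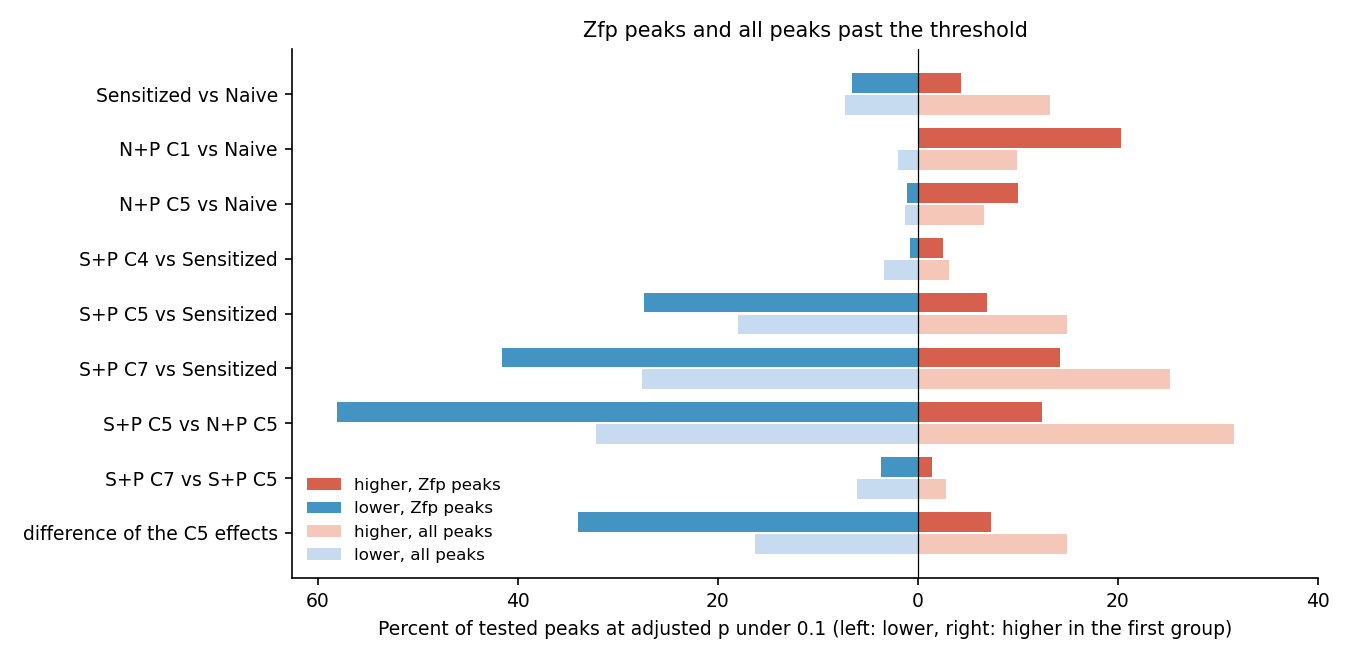
Percent of tested peaks at adjusted p under 0.1 for the Zfp peaks (dark bars) and all peaks (pale bars) in 9 comparisons, with peaks lower in the first-named group to the left and higher to the right. In S+P C5 against N+P C5, 58.0% of Zfp peaks were lower, the longest bar, against 32.2% of all peaks.

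Most promoter peaks of KRAB-like genes were lower. Of these 125 peaks, 82 were lower and 9 higher, with a median log2 fold change of -0.41. The groups did not overlap at 83 of them with S+P C5 lower and at 8 with it higher, against 29 and 19 of the 75 promoter peaks of Zfp genes without the box and 2390 and 2074 of all 7670 promoter peaks. Of the 75 peaks, 30 were lower and 16 higher, with a median of -0.11. Over all promoter peaks, 2372 were lower and 2111 higher. The 34 KRAB-like peaks outside promoters went the same way (26 lower, 3 higher, median -0.62), as did the 40 peaks outside promoters of the other Zfp genes (21 lower, 6 higher, median -0.36), where 33.8% of all 5857 peaks outside promoters were lower and 36.9% higher, with a median of 0.02. The difference between the 2 classes of gene was not tested.

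The chromosome 13 cluster holds 19 Zfp genes with KRAB-like boxes whose starts lie between positions 67209237 and 67961859, and the chromosome 17 cluster holds 18 between 21603988 and 22643102. All 17 peaks of the first and all 17 peaks of the second were lower in S+P C5 than in N+P C5, with median log2 fold changes of -0.72 and -0.83, and none of these 34 peaks overlapped between the 2 groups. The first includes the peak of Zfp708, which represses retroelements, and the second those of Zfp51, Zfp52, Zfp53 and Zfp942. The gene copies are near-identical in parts, and reads that aligned to more than one place were removed before counting. Without both clusters, 125 of the other 240 Zfp peaks were lower and 34 higher, with a median of -0.25.

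Peaks of other genes inside the cluster spans moved with them. All 9 other peaks in the chromosome 13 span were lower (median -0.70), among them those of Rsl1, Zfp729a, Zfp729b, Zfp874a and Zfp874b, which are zinc-finger genes that the symbol rule leaves out. Both other peaks in the chromosome 17 span were lower (median -0.73).

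Across the 17 clusters of at least 5 Zfp genes with a peak, the change was not uniform. On chromosome 7, all 6 peaks of the cluster starting at 6160093 (median -0.47) and all 7 of the cluster starting at 12552798 (median -0.57) were lower, as were all 3 on chromosome 2 (median -0.77) and all 5 on chromosome 6 (median -0.30). The cluster of 15 genes starting at 29467960 on chromosome 7 had 7 of 11 peaks lower (median -0.33). None of 4 peaks passed in the chromosome 8 cluster. All 3 peaks of the chromosome 7 cluster starting at 126832057 were higher (median 0.35), in a span where 11 of 12 peaks of other genes, including Itgal and Srcap, were higher as well (median 0.53).

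**Figure D2:**
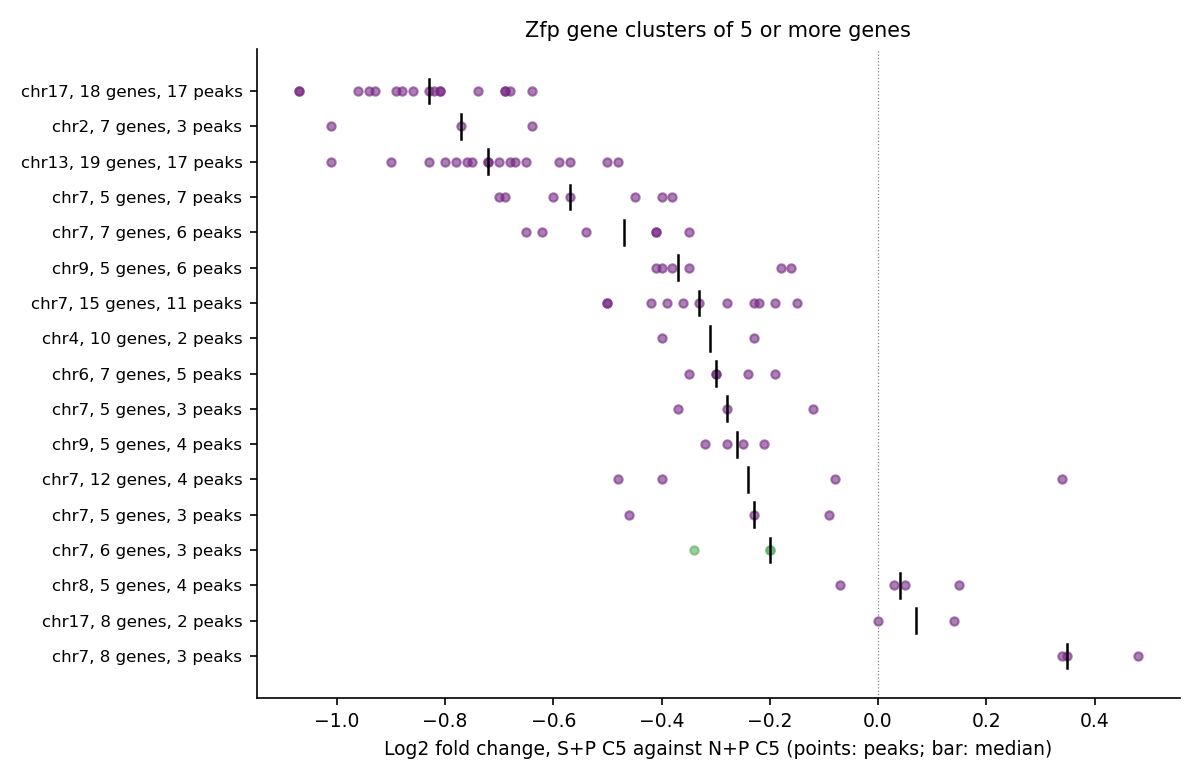
Log2 fold change of S+P C5 against N+P C5 for every Zfp peak (points) in 17 clusters of at least 5 Zfp genes, with the median of each cluster as a bar. Purple marks clusters in which at least 50% of genes had a KRAB-like box and green the one in which none had. Every point of the 2 clusters that start at 67209237 on chromosome 13 and at 21603988 on chromosome 17 lies below 0, with medians of -0.72 and -0.83, while 1 cluster on chromosome 7 has a median of 0.35.

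The level of each cluster was summarised per library as the median over its peaks of the log2 difference from the mean of the peak over the 25 libraries. The chromosome 13 cluster stood at -0.16, -0.24 and 0.29 in Naive, at 0.41, 0.50 and 0.40 in N+P C1, and at 0.39, 0.43 and 0.41 in N+P C5. It stood at -0.46, 0.15, 0.36 and 0.42 in Sensitized. The post-partum libraries of sensitized mice stood at 0.07, -0.15, -0.36 and -0.05 for C4, at -0.15, -0.43, -0.34 and -0.21 for C5, and at -0.23, -0.51, -0.30 and -0.23 for C7. All 6 first-pregnancy libraries were thus higher than all 12 libraries from sensitized pregnant mice. The Naive and Sensitized groups were spread over most of this range, with Naive replicate 3 and Sensitized replicates 3 and 4 at its upper end and Sensitized replicate 1 at its lower end, the same libraries that lay nearest to other groups over all peaks. The part of these libraries' differences in the result was not tested.

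**Figure D3:**
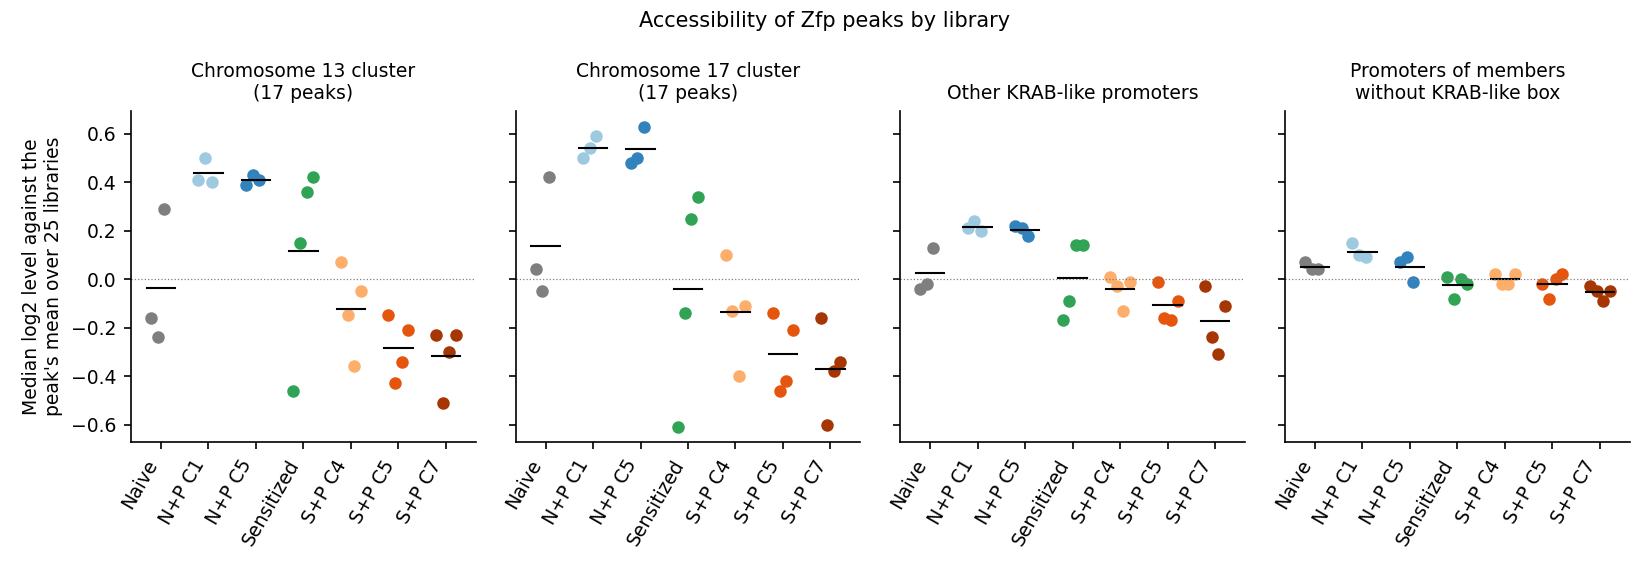
Median log2 level of 4 sets of Zfp peaks in each of the 25 libraries (points) relative to the mean of each peak over all libraries, with group means as bars. In the chromosome 13 and chromosome 17 clusters the N+P libraries lie at 0.39 or above and the S+P libraries at 0.10 or below, while promoters of genes without a KRAB-like box stay between -0.09 and 0.15.

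GC content moved with the fold change over all promoters. Among promoter peaks of other genes, the median log2 fold change ran from -0.22 in the lowest of 5 equal GC groups (1455 peaks, 51.3% lower) to 0.19 in the highest. Zfp promoters lay below the others within groups of GC content: of 80 in the lowest group, 65 (81.2%) were lower and 1 higher, with a median of -0.56, and of the 68 KRAB-like ones among them 57 were lower and 0 higher. Of the 12 without the box in that group, 8 were lower and 1 higher (median -0.26). In the second group, 14 of 30 KRAB-like promoters were lower and 5 higher (median -0.28). Of the 13 without the box there, 8 were lower and 2 higher (median -0.25). The median was also lower for Zfp promoters in the second group (-0.28 against -0.08, with 51.2% against 37.8% lower) and the third (-0.20 against 0.02, with 48.3% against 27.2% lower). In the highest group, 24 Zfp promoters had a median of 0.16, with 33.3% higher and 20.8% lower, against 40.4% and 14.8% of the others. When the counts were scaled for GC content within each library, 157 Zfp peaks were lower and 36 higher, with a median of -0.29.

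**Figure D4:**
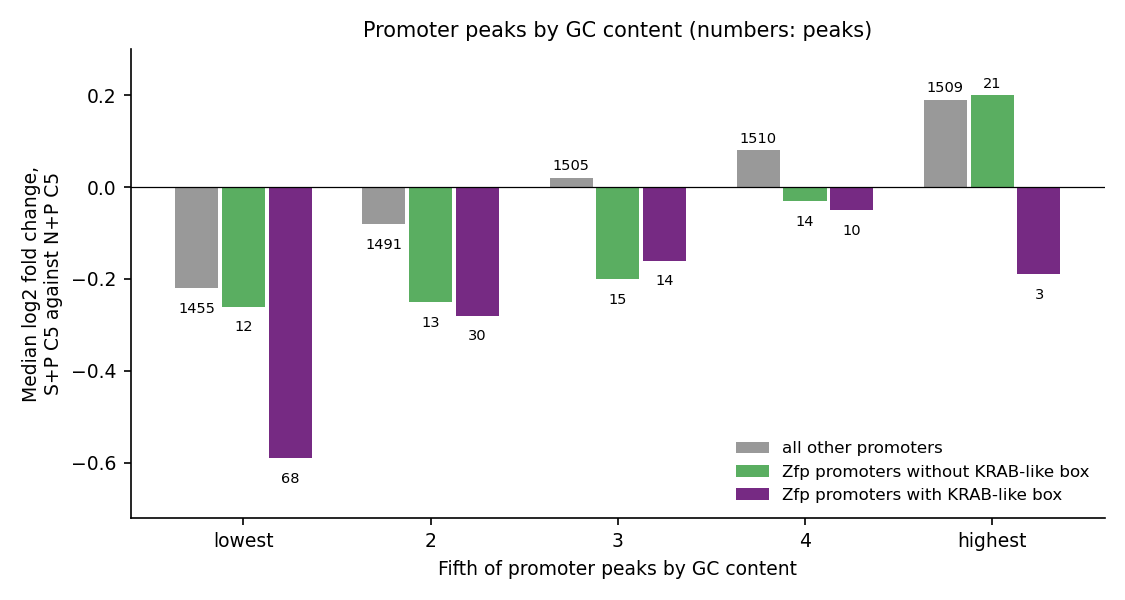
Median log2 fold change of S+P C5 against N+P C5 in 5 equal groups of all promoter peaks ordered by GC content, for Zfp promoters with and without a KRAB-like box and for all other promoters, with the number of peaks at each bar. In the lowest group the median was -0.59 for 68 KRAB-like promoters and -0.22 for 1455 other promoters, and the highest group holds 3 KRAB-like promoters.

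The Zfp1001 intronic peak had the smallest adjusted p of all Zfp peaks for the difference between the pregnancy effects in sensitized and naive mice. Zfp1001 encodes a KRAB-like protein with 8 fingers by the letter pattern. Normalized counts were 251, 224 and 377 in Naive, 441, 451 and 439 in N+P C1, and 489, 500.3 and 513 in N+P C5. They were 356, 476, 396 and 524 in Sensitized, 388, 404, 342 and 386 for S+P C4, 288, 220.4, 232 and 246 for S+P C5, and 344, 320, 242 and 395 for S+P C7. N+P C5 was above both Naive and S+P C5 in every library, and S+P C5 was below every Sensitized library. The log2 fold change was -1.01 ± 0.18 (SE, adjusted p = 9.70e-08) in S+P C5 against N+P C5 and -0.82 ± 0.16 (adjusted p = 1.52e-05) against Sensitized. The Zfp1001 promoter peak fell as well, by 0.77 ± 0.17 on the log2 scale against N+P C5 (adjusted p = 2.42e-05).

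Other closing peaks had similar profiles. The Zfp72 promoter peak (chr13:74538369-74539292) had normalized counts of 434, 370.1 and 471 in N+P C5 but only 266, 202, 166 and 228 for S+P C5, which gave a log2 value of -0.97 ± 0.18 (adjusted p = 4.52e-07). An intergenic peak 13259 bases from Zfp53 had 1105, 1127 and 1176 in N+P C5 and 538, 551, 504 and 566 in S+P C5 (-1.07 ± 0.18, adjusted p = 1.82e-08). A peak 113549 bases from Zfp97, at 2183, 2261 and 2551 against 1214, 1065, 1079 and 1119, fell by 1.06 ± 0.17 (adjusted p = 1.83e-08). The groups did not overlap at any of these peaks.

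All 6 opening Zfp peaks lay outside promoters, nearest to Zfp326, Zfp541, Zfp277, Zfp367, Zfp169 and, at a distance of 1056522 bases, Zfp386. The intergenic peak nearest to Zfp326, whose protein takes part in messenger RNA processing, had 52.3, 49.3 and 43.3 normalized counts in N+P C5 and 518, 615, 530.4 and 315 in S+P C5 (log2 fold change 3.35 ± 0.35, adjusted p = 6.64e-19). It was already open in the Sensitized libraries at 453, 510, 151 and 217, against 31.7, 40.3 and 36.6 in Naive (3.19 ± 0.36, adjusted p = 1.31e-16), with the lowest Sensitized values in replicates 3 and 4. The Zfp326 promoter peak did not rise with it and fell by 0.26 ± 0.11 in S+P C5 against N+P C5 (adjusted p = 0.042).

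The intronic peak of Zfp367 was higher after pregnancy in all 3 subsets from sensitized mice than in Sensitized. It had 47.3, 48.0 and 43.3 normalized counts in N+P C5, 62.3, 68.3, 46.4 and 58.6 in Sensitized, 78.3, 83.1, 163 and 159 for S+P C4, 207, 234, 164 and 147 for S+P C5, and 277, 221, 224 and 264 for S+P C7. All S+P libraries were above all Sensitized ones. The log2 fold change was 1.67 ± 0.25 (adjusted p = 1.43e-09) in S+P C5 against Sensitized and 2.02 ± 0.29 (adjusted p = 3.86e-11) against N+P C5. With loess scaling the first became 0.56 (adjusted p = 0.123) and the second -0.36 (adjusted p = 0.336), so both calls and the direction of the second rested on the scaling, and the cause was not tested. The Zfp367 promoter peak fell by 0.45 ± 0.08 in the same comparison (adjusted p = 6.35e-07).

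An intergenic peak 2767 bases from Zfp169 had 189, 197 and 238 normalized counts in N+P C5 and 645, 756, 463 and 364 in S+P C5 (1.42 ± 0.24, adjusted p = 3.96e-08), with 301, 269, 244 and 272 in Sensitized and 702, 586, 472 and 375 in S+P C7. It was higher in every PD1+ library of sensitized pregnant mice than in any other library. The intronic peak of Zfp277 rose from 169, 132 and 195 in N+P C5 to 569, 516, 417 and 352 in S+P C5 (1.49 ± 0.19, adjusted p = 8.02e-13). A peak 6005 bases from Zfp541 rose from 20.1, 9.59 and 24.0 to 289, 379.6, 149 and 207 (3.82 ± 0.49, adjusted p = 2.53e-13).

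**Figure D5:**
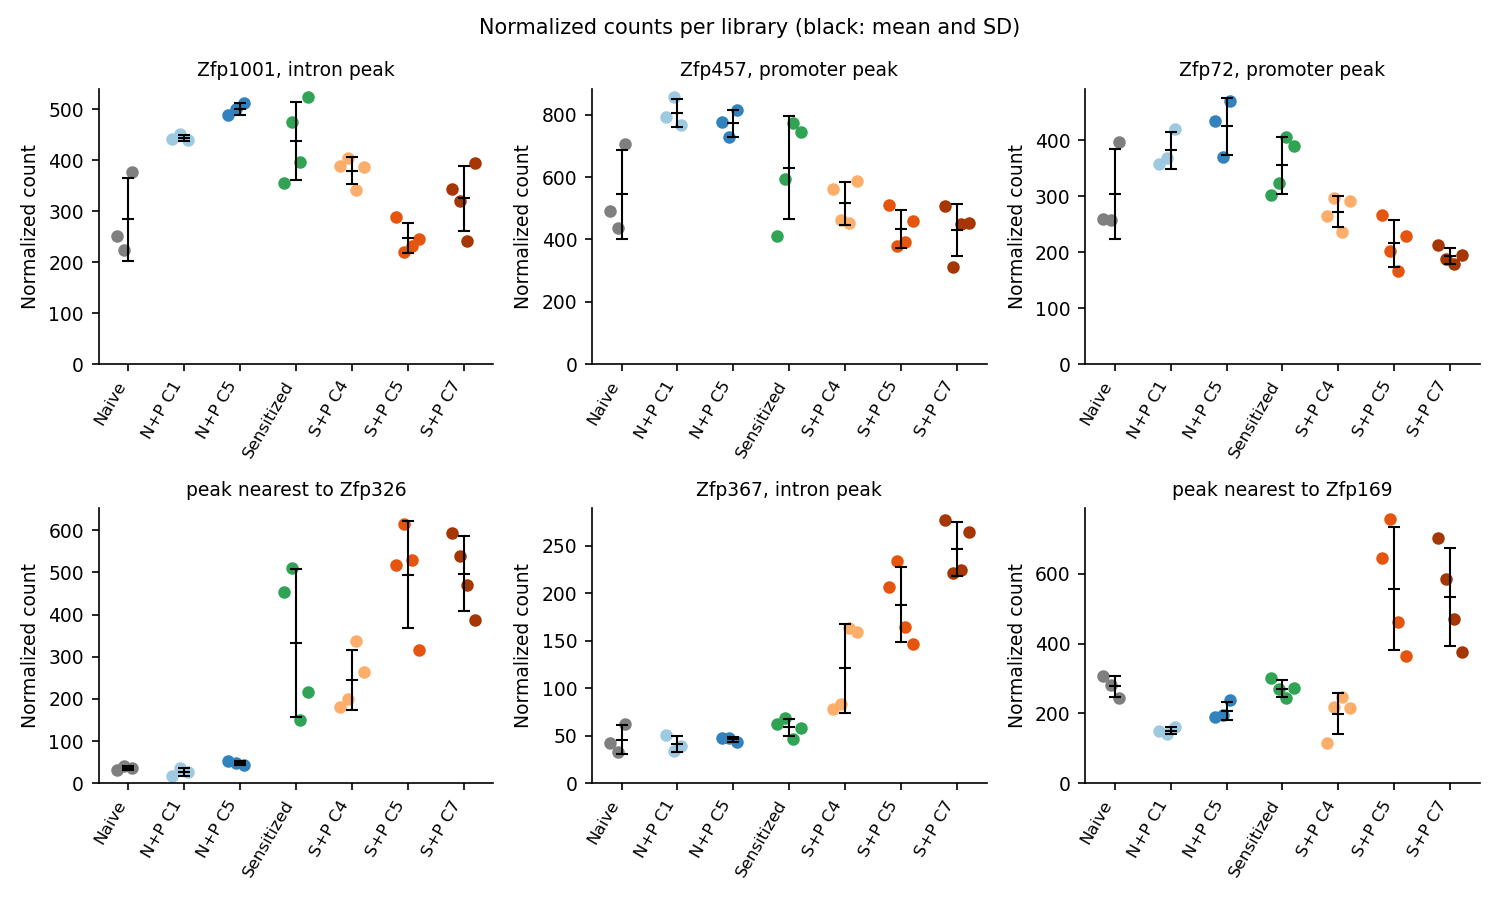
Normalized counts of 6 Zfp peaks in each library (points) by group, with the mean and SD in black. The upper row shows peaks that were lower in S+P C5 than in N+P C5 and the lower row peaks that were higher. The Zfp326 peak lies at 52.3 or below in all 9 libraries of Naive and N+P mice and at 151 or above in the other 16.

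The difference of the pregnancy effects, (S+P C5 minus Sensitized) minus (N+P C5 minus Naive), was tested directly. It was negative for 93 Zfp peaks and positive for 20, against 16.3% and 15.0% of all peaks, with a median of -0.26. With the fold threshold 15 were negative and 2 positive, where 5.97% of all peaks passed. A negative value is not a closing, since it also holds any rise of N+P C5 over Naive. For the chromosome 13 cluster the median was 0.46 in N+P C5 against Naive and -0.42 in S+P C5 against Sensitized. Among KRAB-like promoters 58 were negative and 5 positive (median -0.39), and among the other Zfp promoters 15 and 11 (median 0.01). Over all promoter peaks 17.9% were negative and 16.9% positive. In the lowest GC group, 33.0% of promoters of other genes were negative and 7.22% positive (median -0.23). Of the 68 KRAB-like promoters in that group, 48 were negative and 0 positive (median -0.68). The part of GC content in this contrast was not tested. All 17 chromosome 13 peaks (median -0.85) and 14 of 17 chromosome 17 peaks (median -0.74) were negative. The value was -1.63 ± 0.25 for the Zfp1001 intronic peak (adjusted p = 3.09e-07) and -1.18 ± 0.25 for the Zfp72 promoter (adjusted p = 0.000493). It was 1.69 ± 0.40 for the Zfp367 intronic peak (adjusted p = 0.00243, and 0.76 with adjusted p = 0.206 with loess scaling) and 1.45 ± 0.34 for the peak near Zfp169 (adjusted p = 0.00176). The count passing was 65 without Naive replicate 1, 48 without Naive replicate 2, 69 without N+P C5 replicate 3 and 66 without Sensitized replicate 4.

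In naive mice, more Zfp peaks were higher than lower after pregnancy. In N+P C1 against Naive, 23 Zfp peaks were higher and 0 lower among 113 that passed the independent filter of DESeq2, against 9.91% higher and 1.99% lower of the 4873 peaks tested, and 68 were higher and 10 lower at an unadjusted p under 0.05. In N+P C5 against Naive, 9 were higher and 1 lower of 90 tested, against 6.62% and 1.26% of 3824, with 61 and 8 at an unadjusted p under 0.05. The fold threshold was passed by 0 Zfp peaks in both, and by 0.0205% and 0.0262% of the tested peaks. KRAB-like promoters held 14 of the 23 and 8 of the 9. These were 27.5% of 51 and 21.6% of 37 tested, against 11.8% and 7.56% of all tested promoter peaks. Median log2 fold changes over all 125 were 0.26 and 0.22, against 0.04 and 0.00 for the other Zfp promoters. In the lowest GC group, promoters of other genes had a median of 0.12 in both comparisons. The 68 KRAB-like promoters of that group had medians of 0.38 and 0.34. The part of GC content in this rise was not tested. When libraries were scaled by total counts, the Zfp peaks split into 14 higher and 3 lower in N+P C1. In N+P C5 they split into 4 and 3. With loess scaling the splits were 6 and 1, and 0 and 1. edgeR called 0 in either. Leaving out Naive replicate 3 gave 92 and 86 calls, leaving out either other Naive library gave 0, and leaving out one N+P library gave 2 to 9 and 1. Summed counts at CD8 T cell markers were 6515 to 8083 in Naive, 5990 to 6375 in N+P C1 and 6162 to 6392 in N+P C5. Those at the NK marker Klrb1c were 4029 to 4719, 4747 to 5234 and 4707 to 5238, and those at Cd4 and Klf1 overlapped. The part of these markers in the result was not tested.

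In Sensitized against Naive, 12 Zfp peaks were higher and 18 lower, where the background was 13.3% and 7.25%, and 3 opened and 1 closed with the fold threshold, against 8.62% of all peaks. The openings were the Zfp326 peak described above, the peak near Zfp541 (2.62 ± 0.48, adjusted p = 1.58e-06, but 0.54 with adjusted p = 0.397 under loess scaling) and a peak in an exon of Zfp286, 20786 bases from the start of Zfp287, at 389.9, 362 and 384 normalized counts in Naive and 1159, 826, 462 and 542 in Sensitized (0.98 ± 0.25, adjusted p = 0.00125). The closing was an intergenic peak 24021 bases from Zfp281 (-0.98, adjusted p = 0.0654), a call lost under 6 alternatives, with adjusted p of 0.106 in the fit to these groups alone, 0.224 and 0.187 without Naive replicates 1 and 2, and 0.159 and 0.234 without Sensitized replicates 1 and 2. Of the lower peaks, 6 lay in the 15-gene cluster of chromosome 7, where the Zfp260 promoter fell by 0.35 and the Zfp420 promoter by 0.40 on the log2 scale. Among promoter peaks, 8.0% of those of Zfp genes were lower and 2.0% higher, against 4.95% and 4.68% of all promoter peaks. Of the 125 KRAB-like promoters 6 were lower and 2 higher, and of the 75 other Zfp promoters 10 and 2. The count of 30 became 47 without Naive replicate 3 or without Sensitized replicate 1, and 12 without Naive replicate 1 or 2 or Sensitized replicate 2.

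In sensitized mice, few Zfp peaks passed in the PD1- subset after pregnancy and more in the PD1+ subsets, though the difference between subsets was tested only for C7 against C5. In S+P C4 against Sensitized, 7 Zfp peaks were higher and 2 lower, against 3.12% and 3.42% of all peaks, and 1 passed the fold threshold (0.858% of all peaks), the Zfp367 intronic peak (1.08 ± 0.25, adjusted p = 0.00354). Its adjusted p was 0.146 in the fit to these groups alone and 0.289 with the replicate block. In S+P C5 against Sensitized, 75 were lower and 19 higher, against 18.0% and 14.9%, with a median of -0.13, and 4 opened and 7 closed (6.74% of all peaks). The count of 94 was 43 in the fit to these groups alone and 49 with the replicate block, whose numbers do not pair these animals. In S+P C7 against Sensitized, 114 were lower and 39 higher, against 27.6% and 25.3%, with a median of -0.19, and 5 opened and 18 closed (11.9% of all peaks). Of the 125 KRAB-like promoters, 40 were lower and 4 higher in C5 (median -0.19) and 54 and 13 in C7 (median -0.23). Of the 75 other Zfp promoters, 9 were lower and 9 higher in C5 (median -0.02) and 22 and 17 in C7 (median -0.04). Over all promoter peaks, 12.2% were lower and 14.2% higher in C5, and 21.1% were lower and 26.6% higher in C7. The difference between the classes was not tested. Summed counts at the NK marker Klrb1c were 4074 to 4202 in Sensitized, 4413 to 4880 in S+P C4, 3810 to 4528 in S+P C5 and 4739 to 5322 in S+P C7. Every S+P C4 and S+P C7 library was thus above all Sensitized ones, while the other markers with a peak overlapped. The part of this marker in the result was not tested. The 3 comparisons share the Sensitized libraries, whose spread was wide. Without Sensitized replicate 1 the counts passing were 102 for C4 and 162 for C5. Without Sensitized replicate 4 they were 2 for C4, 27 for C5 and 100 for C7, and without replicate 3 they were 4 for C4 and 41 for C5. Without S+P C5 replicate 2 the S+P C5 count was 42.

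S+P C7 and S+P C5 were sorted from the same mice. Summed counts at the NK marker Klrb1c were 3810 to 4528 in C5 and 4739 to 5322 in C7, and so higher in every C7 library. The other markers with a peak overlapped. The part of Klrb1c in the result below was not tested. Of the Zfp peaks, 10 were lower and 4 higher in C7, against 6.10% and 2.83% of all peaks, and 4 closed with the fold threshold (2.38% of all peaks). With the mouse as a block, 41 passed, 25 lower (9.12%) and 16 higher (5.84%), against 14.6% and 11.7% of all peaks in the same fit, and in the fit without the block and without S+P C7 replicate 1 the count was 24. The 4 closing peaks lay outside promoters. The intronic peak of Zfp536 had 240.4, 260.2, 196 and 200 normalized counts in C5 and 134, 66.4, 66.3 and 55.3 in C7 (-1.46 ± 0.31, adjusted p = 0.000227). The intronic peak of Zfp957 had 311, 269, 183 and 218 in C5 and 159, 129, 96.1 and 85.2 in C7 (-1.06 ± 0.30, adjusted p = 0.0106). The same intergenic peak near Zfp281 had 309, 282, 208 and 213 in C5 and 142, 114, 64.6 and 66.7 in C7 (-1.38 ± 0.37, adjusted p = 0.00624). The C7 libraries lay below all C5 libraries at each of these 3. The fourth was a peak in an intron of Tshz2, 97272 bases from Zfp217, at 249, 82.7, 84.9 and 107 in C5 and 96.1, 34.0, 33.1 and 44.5 in C7 (-1.32 ± 0.49, adjusted p = 0.0873), with C7 lower in each of the 4 mice. The adjusted p was 1.02e-06 with the mouse as a block, whereas in fits without the block it was 0.489 without S+P C5 replicate 1 and 0.103 to 0.209 without S+P C5 replicate 4 or S+P C7 replicate 2, 3 or 4, and 0.133 in edgeR.

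Of 10 Zfp genes with a described role in T or other immune cells, 7 had a peak and Zfp683 (Hobit, a factor of tissue-resident memory cells), Zfp91 and Zfp827 had none. At the strongest peak of each, 1 was higher and 2 were lower in S+P C5 than in N+P C5, no more than the 31.6% and 32.2% of all peaks. The promoter of Zfp335, needed for the accumulation of mature T cells, had 291, 232 and 243 normalized counts in N+P C5 and 387, 447, 442 and 425 in S+P C5 (0.73 ± 0.20, adjusted p = 0.000944). The promoter of Zfp292, encoding a large transcription factor, fell from 779.8, 757 and 736 to 537, 433, 628 and 597 (-0.46 ± 0.15, adjusted p = 0.00441). The groups were separate at both. An intergenic peak near Zfp831 fell by 0.37 ± 0.12 (adjusted p = 0.00647), while the Zfp281 promoter (0.17 ± 0.10, adjusted p = 0.144, but 0.0415 with total-count and 0.0572 with loess scaling) and the peaks of Zfp148, Zfp318 and Zfp217 did not pass.

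Of 8 factors that act at many promoters or on chromatin, 6 had a peak (Zfp410 and Zfp462 had none). Of these, 1 was higher and 1 lower, below the same shares of all peaks. Zfp384 was higher (0.23 ± 0.11, adjusted p = 0.0679) and Zfp131 lower (-0.22 ± 0.09, adjusted p = 0.0369). Neither call held in every setting: adjusted p was 0.135 for Zfp384 with the replicate block and 0.481 for Zfp131 with loess scaling. The promoters of Zfp143, Zfp592, Zfp687 and Zfp644 did not pass, though Zfp143 (0.26) and Zfp687 (0.22) did as higher with loess scaling and Zfp592 (-0.31) and Zfp644 (-0.20) as lower with GC offsets. Of 6 KRAB repressors of imprints or retroelements, 4 had a peak, 1 higher and 3 lower, and Zfp57 and Zfp568 had none, numbers too small to set against the shares of all peaks. The promoter of Zfp445, which maintains imprints, was higher, at 195, 184 and 195 in N+P C5 and 268, 291, 258 and 315 in S+P C5 (0.56 ± 0.15, adjusted p = 0.000683). The peak of the retroelement repressor Zfp708, at a transcript start 16553 bases from the gene start, was lower (-0.75 ± 0.18, adjusted p = 0.00017). The promoters of the retroelement repressors Zfp932 (-0.54 ± 0.19, adjusted p = 0.00959) and Zfp809 (-0.21 ± 0.11, adjusted p = 0.0968) were lower, the last not so under 10 of the alternatives tried, with adjusted p of 0.371 under loess scaling. Of 10 other Zfp genes 4 had a peak, with Zfp598, a sensor of collided ribosomes, higher (0.35, adjusted p = 0.014, and 0.117 with the replicate block) and Zfp703 lower (-0.30, adjusted p = 0.00479, and 0.289 with loess scaling).

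Among the 5 genes with 4 or more peaks, all 4 peaks each of Zfp52, Zfp619 and Zfp825 were lower in S+P C5 than in N+P C5, with log2 fold changes from -1.07 to -0.33. The peaks of Zfp217 and Zfp281 were mixed, with 3 of 6 and 1 of 5 lower and 0 higher. The call of the Zfp619 peak at -0.48 was lost without N+P C5 replicate 2 (adjusted p = 0.14) and that of the Zfp217 peak at -0.41 with the replicate block (adjusted p = 0.122), while another Zfp281 peak passed as lower under 4 alternatives and the Zfp281 promoter as higher under 2. The strongest fall was at the Tshz2 intronic peak nearest to Zfp217, by 2.28 ± 0.52 on the log2 scale (adjusted p = 6.45e-05).

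Cofactors of KRAB proteins were described from a separate list. Of 18 cofactor genes, 14 had 36 peaks, and Trim28, Setdb1, Chd3 and Pphln1 had none. In S+P C5 against N+P C5, 14 of the 36 were higher (38.9%, against 31.6% of all peaks) and 7 lower (19.4%, against 32.2%), with a median of 0.18 and 7 opening with the fold threshold. Most of the 36 peaks, and most of the 14 higher ones, lay nearest to Atf7ip or Tasor. The only other genes with a higher peak were Cbx1, Hdac1 and Morc3, so the shares do not describe the cofactor list as a whole. Of their 15 promoter peaks, 4 were higher and 6 lower, with a median of -0.12, and the 7 openings all lay outside promoters, nearest to Atf7ip or Tasor. An intronic peak nearest to Atf7ip, a partner of the methyltransferase SETDB1, rose by 3.72 ± 0.52 on the log2 scale (adjusted p = 2.26e-11), and 4 intronic peaks nearest to Tasor rose by 1.45 to 1.83. The promoters of Hdac2 (-0.55 ± 0.10) and Smarcad1 (-0.69 ± 0.14) were lower. The related Zbtb genes had 11 lower and 4 higher of 25 promoter peaks (median -0.11), and Zkscan and Zscan genes 4 and 4 of 12 (median 0.17), where 30.9% of all promoter peaks were lower and 27.5% higher.

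By Pearson correlation over the 25 libraries, the peaks most like the Zfp1001 intronic peak were one nearest to Ifna1 (r = 0.854), the Zfp1001 promoter (0.841), the Med23 promoter (0.839), an intronic peak nearest to Fez2 (0.836) and the Platr25 promoter (0.827). Of the 100 most similar peaks, 12 were Zfp peaks, where 274 of all 13527 peaks are Zfp peaks. These libraries share depth, gates and animals, and the values are a description.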

How the data were processed

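ATAC-seq libraries of OVA-tetramer+ CD8+ T cells were processed by the authors: reads were trimmed (cutadapt 3.4), aligned to GRCm39 (Bowtie2 2.2.9), cleared of reads without a unique position and of duplicates (Picard 2.21.8), peaks were called per library (Genrich 0.6.1), made reproducible per group (ChIP-R) and merged (bedtools 2.27.1), and reads were counted with deepTools. The raw counts of 13527 merged peaks in 25 libraries, 3 or 4 per group, were used as deposited, and the per-group peak lists, whose deposited score was not tested, only showed in which groups a peak was listed. Total counts per library ranged from 2430890 to 25419715, which limits the precision of weak peaks.

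Peaks were assigned to the nearest protein-coding gene start (GENCODE vM39), promoters being within 1000 bases of a transcript start. One DESeq2 fit (version 1.42.0, Wald test, group as the only term, with a local dispersion trend substituted by the tool, R 4.3.3) over all libraries gave 9 contrasts, with Benjamini-Hochberg adjustment over all peaks at 0.1, and with an absolute log2 fold change over 0.9 for opening and closing. Gene clusters were Zfp genes whose starts lay within 250 kb of the next. The test was tested on simulated data. Alternatives were total-count scaling, loess and GC offsets (the last chosen after seeing the data), a mean count of at least 50, no independent filter, adjusted p under 0.05, the compared groups alone, a replicate block, promoter peaks only, each library left out, and edgeR 4.0.16. Subsets of one pregnant mouse share a number: deviations of same-numbered libraries correlated at 0.522 to 0.771 between S+P C5 and S+P C7, 0.103 to 0.572 between S+P C4 and S+P C5, 0.064 to 0.666 between S+P C4 and S+P C7 and 0.108 to 0.400 between N+P C1 and N+P C5. Between libraries of different numbers the highest values were 0.137, 0.44, 0.252 and 0.027 in the same order, so the ranges of the pairs with S+P C4 overlapped. The pairing rests on the shared animal, and of these pairs only S+P C5 and S+P C7 were compared. Naive and Sensitized numbers mark other animals. No pair of libraries agreed within sampling noise.

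Named peaks were, per comparison, up to 5 opening and 5 closing Zfp peaks of smallest adjusted p, the strongest peak of each gene with a listed role, the peaks of genes with 4 or more, and Zfp1001. Members, gene lists and Zfp1001 were chosen with earlier results of these data known. Other genes and the Zfp287, Zfp260 and Zfp420 values were named after their values were seen. Sequences were read from the GRCm39 genome, and promoters of KRAB-like and other genes were searched on both strands.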

Additional observations from a re-analysis of the deposited data

Results flagged for a closer look

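The values below were flagged either because 1 library of a group lay far from the others or because the 2 effects of pregnancy on C5 cells differed. The first rule was Dixon's test at its 95% critical value over 300 groups of named peaks and set levels, of which chance flags about 1 in 20. Fewer were flagged than that rate would give, so the flagged libraries are descriptions.

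Sensitized replicate 1 was flagged at 3 peaks. It had 838 normalized counts at the Zfp831 peak, where the other Sensitized libraries had 1212 or more, 819 at the Zfp619 promoter (others 1145 or more), and 406 at the Zfp318 promoter (others 243 to 253). S+P C7 replicate 1 was high at the Zfp277 intronic peak with 534 (others 368 to 377) and at the Zfp536 intronic peak with 134 (others 55.3 to 66.4). S+P C5 replicate 1 was high at the Tshz2 intronic peak nearest to Zfp217 with 249 (others 82.7 to 107). S+P C5 replicate 4 was low at the second Zfp592 peak with 159 (others 272 or more) and at the peak nearest to Zfp287 with 538 (others 738 to 752). S+P C7 replicate 3 was high at the Zfp287 peak with 704 (others 444 to 478), and S+P C7 replicate 4 was low at a Zfp281 intergenic peak with 257 (others 307 or more).

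The effect of pregnancy on C5 cells differed between sensitized and naive mice, by the test of the difference itself with the fold threshold, at 17 Zfp peaks of 274, where 5.97% of all peaks passed, a share close to theirs. It was more negative in sensitized mice at Zfp1001 (-1.63), Zfp72 (-1.18), Zfp935 (-0.99), Zfp97 (-0.97), Zfp273 (-0.98), Zfp558 (-0.97), 2 peaks of Zfp808 (-0.96 and -1.06), 2 of Zfp1008 (-0.90 and -1.09), Zfp759 (-0.94), Zfp458 (-0.95), Zfp457 (-1.03), Zfp65 (-0.96) and Zfp493 (-1.0). It was more positive at the peak near Zfp169 (1.45) and the Zfp367 intronic peak (1.69).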

How the results depend on the processing

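Of the 9 counts of Zfp peaks passing, those of S+P C5 against N+P C5, of S+P C7 against Sensitized and of the difference of the C5 effects stayed within 1.5 times their value under every alternative that kept all libraries. With adjusted p under 0.05 the count was 18 in Sensitized against Naive, 10 in N+P C1, 1 in N+P C5, with 2 left for S+P C4. In the fit to the compared groups alone it was 13 in Sensitized against Naive, 76 in N+P C1, 65 in N+P C5, 1 in the C4 comparison and 43 for S+P C5 against Sensitized. With the replicate block it was 18 in Sensitized against Naive, 53 in N+P C1, 56 in N+P C5, 1 in the C4 comparison, 49 for S+P C5 against Sensitized and 41 in S+P C7 against S+P C5, of which only the last pairs libraries of the same mice. With loess scaling it was 7 in N+P C1 and 1 in N+P C5, with GC offsets 36, 22 and, in S+P C4, 14, without the independent filter 14 and 3, and with edgeR 0, 0 and, in S+P C4, 2 (58 higher and 13 lower in N+P C1, and 56 and 8 in N+P C5, at an unadjusted p under 0.05). Among promoter peaks alone it was 62 in S+P C5 against Sensitized and 6 in S+P C7 against S+P C5.

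Leaving out 1 library gave 12 to 47 in Sensitized against Naive, 0 to 92 in N+P C1, 0 to 86 in N+P C5, 2 to 102 in the C4 comparison, 27 to 162 in S+P C5 against Sensitized, 100 to 190 in S+P C7 against Sensitized, 171 to 200 in S+P C5 against N+P C5, 10 to 24 in S+P C7 against S+P C5 and 48 to 165 for the difference of effects. In S+P C4 the count was 102 without Sensitized replicate 1, 4 without replicate 2 or 3, 2 without replicate 4, and 22, 2 and 3 without S+P C4 replicates 1, 3 and 4. For N+P C1 it was 9, 2 and 4 without its replicates 1, 2 and 3, and for N+P C5 1 without any of its own. Of single named peaks, 1373 values kept direction and side of the threshold, 59 lost it, 16 gained it, and the Zfp367 intronic peak reversed with loess scaling to -0.36 in S+P C5 against N+P C5. The cause was not tested for these changes. Depth limits the weakest peaks, such as that near Zfp541 (17.3 normalized counts on average in Naive).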
